A study of Mus musculus with 15 samples.

Results

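Membrane transporters of 6 solute carrier families were followed in mouse intestinal organoids. They comprise every protein-coding gene whose symbol starts with Slc2a, Slc4a, Slc5a, Slc9a, Slc12a or Slc26a, which selects 67 of the 43629 genes in the count table. The Slc5a family contributed 13 of them, Slc2a 12, Slc4a, Slc9a and Slc26a 11 each, and Slc12a 9. The rule uses the gene name only, so it also takes in 3 genes that encode no carrier, namely the scaffold proteins Slc9a3r1 and Slc9a3r2 and the kanadaptin gene Slc4a1ap.

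Organoids are small epithelial structures grown from intestinal stem cells in a gel, and their RNA was sequenced in 15 libraries, all of a mixed C57B6/129 background. WT comprised 5 libraries in ENR medium (EGF, Noggin and RSPO1), of which 1 was dox naive and the other 4 were Apc flox/flox organoids of the lines 1, 2, 5 and 6. Apc comprised 4 libraries of the lines with the same numbers carrying Apc delta/delta, a deletion of this brake on Wnt signalling. P-Rspo3 comprised 4 libraries, labelled 15d, 4d, M and F, with the Ptprk-Rspo3 rearrangement that a doxycycline-inducible Cas9 makes in polyclonal cultures. Both mutant groups were kept in EN medium, without RSPO1. Genotype and medium therefore cannot be told apart in a comparison with WT, whereas Apc and P-Rspo3 shared the medium. P-Rspo3 cultures came from transgenic mice and were treated with doxycycline, while Apc came from the numbered lines. Parental line and doxycycline cannot be told apart from the rearrangement against Apc, nor against the 4 flox WT libraries. The labels do not say whether libraries of a group came from separate animals, so p-values measure only the spread between these libraries. The remaining 2 libraries have titles and genotypes that conflict, and they entered no group.

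The total count per grouped library was 28902729 to 35528495. Rspo3 had 0 to 1 counts in WT, 7 to 57 in Apc and 539 to 1079 in P-Rspo3. The whole-gene count of Apc was 9265 to 10953 in Apc and 4046 to 6810 in WT, and as it includes exons outside a deletion it does not check the genotype. Epithelial markers (Epcam, Cdh1, Vil1, Krt8, Cdx2) summed to 1092 to 1347 FPKM (fragments per kilobase of transcript, scaled to library size) in every grouped library. The 5 stromal markers summed to at most 0.618 FPKM, the 5 immune markers to at most 10.2 and the 3 endothelial markers to at most 2.04, the last 2 maxima both being in Apc replicate 6. Every Apc library had higher immune and endothelial sums (at least 3.67 and 1.17) than any WT or P-Rspo3 library (at most 2.79 and 0.474). Among colonic markers, Hoxb13 was at 0 in every grouped library, and Car1 was listed at 0 in every WT and P-Rspo3 library.

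In the small intestine, dietary glucose and galactose enter the enterocyte from the lumen with sodium through SGLT1 (Slc5a1), fructose enters through GLUT5 (Slc2a5), and all of these sugars leave across the basolateral membrane through GLUT2 (Slc2a2). Sodium chloride is absorbed when an apical sodium-proton exchanger, chiefly NHE3 (Slc9a3), works beside an apical chloride-bicarbonate exchanger of the Slc26a family. Secretion runs the other way, with the sodium-potassium-chloride cotransporter NKCC1 (Slc12a2) loading chloride from the blood side for release by the channel CFTR. The absorptive carriers are known as products of differentiated villus cells, and NKCC1 as a product of the crypt.

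In WT, 33 of the 67 members had a mean level of at least 1 FPKM and 23 of at least 10 FPKM, while 16 had a mean under 0.1 FPKM in each of the 3 groups. The 10 most abundant members held 80.8% of the summed WT level of all members. Slc5a1 was first with 386 ± 139 FPKM (SD, n = 5), followed by the anion exchanger Slc26a6 with 194 ± 42.9 and Slc12a2 with 157 ± 48.2. The libraries of Slc5a1 all lay above those of Slc26a6, while Slc26a6 and Slc12a2 overlapped. Next came the scaffold Slc9a3r1 with 95.3 ± 9.08, Slc2a5 with 90.0 ± 29.1, Slc2a2 with 68.9 ± 23.1, the anion exchanger Slc4a2 with 59.7 ± 4.04, Slc5a4b with 57.2 ± 24.8, the glucose carrier Slc2a1 with 55.8 ± 5.86 and Slc26a3 with 46.6 ± 8.42 FPKM. The range of Slc9a3r1 lay under that of Slc12a2, and from Slc9a3r1 down the ranges of neighbours in this order overlapped. The choline carrier Slc5a7 was listed at 0 in every library.

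The start regions of 50 of the 67 members were found among RefSeq promoter windows of GRCm38.p6, each running from 250 bases before to 50 bases after a RefSeq start. Those of 3 members that were lower in Apc are shown here, Slc5a1 as the most abundant member, and Slc26a3 and Slc5a4a because they were the only windows among those of the 15 such members searched to hold the letters GTTAAT, the core of the HNF1 motif. All are on the plus strand and written 5′ to 3′, and capitals mark the motif letters on either strand.
Slc5a1, chr5:33103969-33104268: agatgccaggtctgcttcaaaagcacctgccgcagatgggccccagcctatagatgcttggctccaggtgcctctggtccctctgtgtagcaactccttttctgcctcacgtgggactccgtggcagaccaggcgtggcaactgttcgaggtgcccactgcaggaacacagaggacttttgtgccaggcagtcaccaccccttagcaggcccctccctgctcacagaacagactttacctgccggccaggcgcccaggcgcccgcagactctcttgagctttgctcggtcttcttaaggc
Slc26a3, chr12:31437969-31438268: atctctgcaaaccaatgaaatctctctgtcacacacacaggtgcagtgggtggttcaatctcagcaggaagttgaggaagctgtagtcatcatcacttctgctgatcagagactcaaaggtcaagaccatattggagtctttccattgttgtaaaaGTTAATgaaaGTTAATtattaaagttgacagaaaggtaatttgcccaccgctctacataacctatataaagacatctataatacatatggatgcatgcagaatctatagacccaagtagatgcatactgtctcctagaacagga
Slc5a4a, chr10:76147201-76147500: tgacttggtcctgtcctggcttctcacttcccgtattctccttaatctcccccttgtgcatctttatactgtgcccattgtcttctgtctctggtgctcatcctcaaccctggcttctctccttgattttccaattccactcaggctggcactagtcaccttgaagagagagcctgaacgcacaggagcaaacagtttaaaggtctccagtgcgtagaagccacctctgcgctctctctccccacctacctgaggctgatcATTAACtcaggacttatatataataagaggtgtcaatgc

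Both matches of Slc26a3 lay before the start, their first bases at -94 and -84, and that of Slc5a4a after it, at 12. GTTAAT on either strand was held by 2 of the 15 windows (13.3%) of members lower in Apc. It was held by a like share, 2 of 14 windows (14.3%), of members tested and not called, and by 0 of 5 of members higher in Apc. The share was 4 of 50 (8.0%) over all member windows and 6.14% over the 18852 windows of genes in the count table. Of the other letters searched on both strands, CTTTGAT (TCF/LEF, the factors of Wnt signalling) was held by 3.24% of all windows and by 1 member, Slc12a3, and CAAAGTCC (HNF4) by 1.5% and by no member. TTTATNG (CDX) was held by 10.1% of all windows and 6 of the 50 member windows, and AGATAA, read by factors of the GATA family, by 9.54% and 7 of the 50. Among the members lower in Apc, TTTATNG and AGATAA were each held by 1 window (6.67%), in both cases that of Slc26a10. No matches of different motifs overlapped in a member window. A match describes letters in this window, not binding.

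The first comparison asked how the transporters differ between organoids without Apc and WT. Of the 67 members, 45 passed the filter on low levels and were tested with edgeR's quasi-likelihood test on counts. Calling a member required an absolute log2 fold change above 1 and, after Benjamini-Hochberg adjustment over all genes tested, a p under 0.05. In Apc, 16 members were lower (35.6% of those tested) and 8 higher (17.8%), where 14.1% and 12.2% of the 16749 genes tested were called lower and higher. The median log2 fold change was -0.44 over the tested members and 0.0006 over all genes tested, and it was the same with the 3 members under the detection floor set at their bounds. Of the 21 members not called, 10 had an adjusted p under 0.05 with a smaller fold change. Summed over all members, the level was 597 ± 29.4 FPKM in Apc (SD, n = 4) and 1497 ± 199 in WT (SD, n = 5). The Slc5a and Slc26a families stood furthest apart, with 31.65 ± 4.10 against 475 ± 135 FPKM and 32.3 ± 2.26 against 254 ± 44.5 FPKM. The Slc12a sums overlapped, with 211 ± 13.9 in Apc and 223.5 ± 48.3 in WT. FPKM and the counts as normalized for the test are on shifted scales, since the median of all genes tested was 0.17 higher in Apc on the log2(FPKM + 1) scale and near 0 in the fit on counts.

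**Figure D1:**
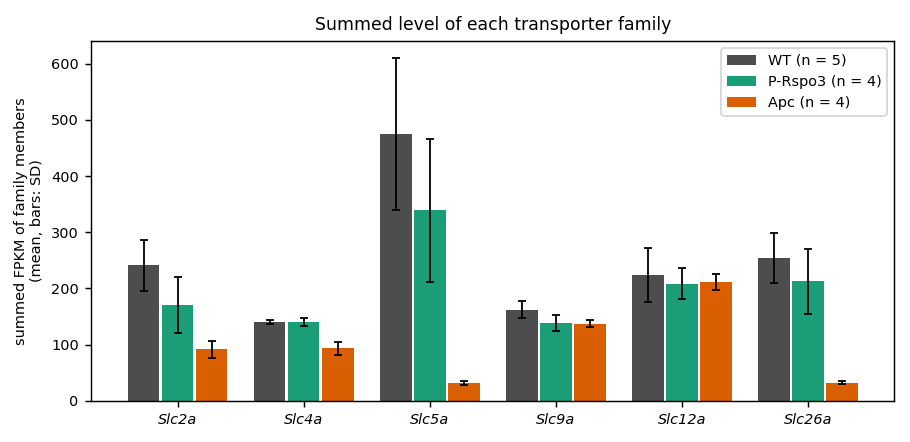
Summed FPKM of the members of each family (vertical axis) in WT, P-Rspo3 and Apc. Bars are means over libraries and error bars the SD; the Slc5a sums are 475 (WT), 339 (P-Rspo3) and 31.65 (Apc) and the Slc12a sums 223.5, 208.5 and 211.

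Markers of differentiated cells were mostly lower in Apc. All 7 enterocyte markers were lower in Apc (median log2 fold change -9.91), and their summed level was 25.2 to 53.9 FPKM in Apc against 3207 to 9360 in WT. All 5 goblet markers, 4 of 5 Paneth markers and 4 of 5 enteroendocrine markers were lower too, while of the 4 stem cell markers Ascl2, Lgr5 and Smoc2 were higher and Olfm4 lower. Of 3 tested tuft markers 2 were lower, and of 2 tested markers each of stroma, immune cells and endothelium 1 was higher and 1 lower. Vil1 was the single epithelial marker called, and it was lower. The summed epithelial markers overlapped, at 1113 to 1268 FPKM in Apc and 1174 to 1347 in WT. In bulk RNA, fewer cells of a type and less RNA per cell cannot be told apart, and the part of cell composition in the differences of the carriers was not tested.

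In the group of sodium-coupled sugar carriers, 4 of 7 tested members were called lower in Apc and none higher, beside 14.1% and 12.2% of all genes tested. The median log2 fold change of the 7 was -5.14, that of Slc5a1. Slc5a1 (SGLT1, ENSMUSG00000011034, chr5:33104219-33162870 on GRCm38) had 306, 413, 617, 280.2 and 313 FPKM in WT replicates 1, 2, 5, 6 and naive, and 13.0, 17.0, 12.8 and 11.7 in Apc replicates 1, 2, 5 and 6. The lowest WT library thus lay far above the highest Apc library, and the log2 fold change was -5.14 ± 0.30 (SE; edgeR adjusted p = 2.07e-07). It still had 1944 to 2419 counts in Apc, so its message was reduced and not lost. Its share of the summed member level was 25.8% in WT and 2.28% in Apc. The SGLT3 gene Slc5a4b had 38.3 to 100.1 FPKM in WT and 0.0253 to 0.115 in Apc, a log2 fold change of -9.75 ± 0.46 (edgeR adjusted p = 4.99e-08). Slc5a11, a myo-inositol cotransporter, had 290 to 764 counts in WT and 0 to 2 in Apc. It was at least 221-fold lower, taking 3 counts per library as the floor (edgeR adjusted p = 2.87e-07). Slc5a4a, with 0.364 to 1.49 FPKM in WT, had at most 2 counts in an Apc library and was at least 31.9-fold lower (edgeR adjusted p = 1.46e-05). Slc5a4a and Slc5a4b are related genes, and how the counting treated reads that match both is not given in the sources used here.

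The other tested members of this group were not called. Slc5a9 (SGLT4) had 6.85 to 11.2 FPKM in WT and 4.67 to 8.67 in Apc, with a log2 fold change of -0.70 ± 0.18 (edgeR adjusted p = 0.00572). Slc5a3, the osmotically regulated myo-inositol carrier SMIT1, had 1.22 to 1.87 FPKM in WT and 2.02 to 2.99 in Apc, with a log2 fold change of 0.35 ± 0.14 (edgeR adjusted p = 0.053). Slc5a10 lay at or under 0.172 FPKM in every grouped library. Outside the sugar carriers, the vitamin cotransporter Slc5a6 had 8.70 ± 0.988 FPKM in WT and 8.20 ± 2.83 in Apc (log2 fold change -0.32 ± 0.16, edgeR adjusted p = 0.112). These 4 and the other members named below outside the naming rule were chosen after their values were seen.

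Among the facilitative sugar carriers, 4 of 9 tested members were lower in Apc and 2 higher, beside 14.1% and 12.2% of all genes tested. Slc2a2 (GLUT2, ENSMUSG00000027690, chr3:28697903-28731359) had 63.6, 70.3, 105.4, 41.5 and 63.8 FPKM in the 5 WT libraries and 0.0842, 0.125, 0.168 and 0.0689 in the 4 Apc libraries. Every WT library held at least 4213 counts and no Apc library more than 14, and the log2 fold change was -9.91 ± 0.41 (edgeR adjusted p = 2.49e-08). Slc2a5 (GLUT5, ENSMUSG00000028976, chr4:150119283-150144169) had 85.1, 45.0, 122, 107 and 90.2 FPKM in WT and 0.439, 0.756, 0.984 and 0.583 in Apc. This fructose carrier varied widely within WT, but its lowest WT library still lay far above every Apc library (log2 fold change -7.23 ± 0.38, edgeR adjusted p = 1.1e-07). Slc2a7 (GLUT7), an intestinal hexose carrier, had 4.41 to 16.4 FPKM in WT and at most 2 counts in an Apc library, and was at least 310.0-fold lower (edgeR adjusted p = 9.11e-07). Slc2a10 was lower from a low level, with 0.255 to 0.533 FPKM in WT and 0.0157 to 0.0743 in Apc (log2 fold change -3.19 ± 0.42, edgeR adjusted p = 7.04e-05).

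The basal glucose carrier Slc2a1 (GLUT1) did not share this pattern. It had 51.1 to 65.9 FPKM in WT and 58.0 to 94.3 in Apc, and with a log2 fold change of 0.19 ± 0.13 it was not called (edgeR adjusted p = 0.229). An interval of 2 standard errors ran from -0.07 to 0.45. Slc2a8 had a log2 fold change of -0.01 ± 0.11 (edgeR adjusted p = 0.978), and Slc2a9, a urate carrier, -0.94 ± 0.13 (edgeR adjusted p = 1.1e-04), just short of the fold threshold. The 2 members called higher were both scarce. Slc2a6 (GLUT6) had 0.0501 to 0.211 FPKM in WT and 0.362 to 0.830 in Apc (log2 fold change 2.56 ± 0.39, edgeR adjusted p = 2.24e-04). Slc2a4 (GLUT4), the insulin-responsive carrier of muscle and fat, had 0.0221 to 0.167 FPKM in WT and 0.162 to 0.398 in Apc, so the groups overlapped in WT replicate 2, and the test rested on 2 to 8 counts per WT library and 13 to 28 per Apc library (log2 fold change 1.55 ± 0.37, edgeR adjusted p = 0.00427).

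Among the Slc26a anion exchangers, 3 of 5 tested members were called lower in Apc and none higher, beside 14.1% and 12.2% of all genes tested. Slc26a6 (PAT1, ENSMUSG00000023259) had 230, 157, 246, 149.6 and 188 FPKM in WT and 4.42, 4.82, 2.397 and 3.72 in Apc, a log2 fold change of -5.77 ± 0.23 (edgeR adjusted p = 1.96e-08). It was the smallest adjusted p among the members. Slc26a3 (DRA, ENSMUSG00000001225), whose loss in people causes chloride-losing diarrhoea, had 46.7, 36.7, 43.9, 45.6 and 59.9 FPKM in WT and 3.79, 4.81, 6.50 and 4.53 in Apc. Its log2 fold change was -3.55 ± 0.19 (edgeR adjusted p = 1.16e-07), an 11.7-fold difference between groups that each varied little. Slc26a10 was lower at trace level, with 40 to 56 counts in WT and 7 to 16 in Apc (log2 fold change -2.51 ± 0.28, edgeR adjusted p = 2e-05), and 17.8% of its exonic bases overlap B4galnt1 on the other strand. The sulphate carrier Slc26a2 had 8.03 to 12.7 FPKM in WT and 19.0 to 24.95 in Apc without overlap, yet its log2 fold change of 0.60 ± 0.14 stayed under the threshold (edgeR adjusted p = 0.00362).

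**Figure D2:**
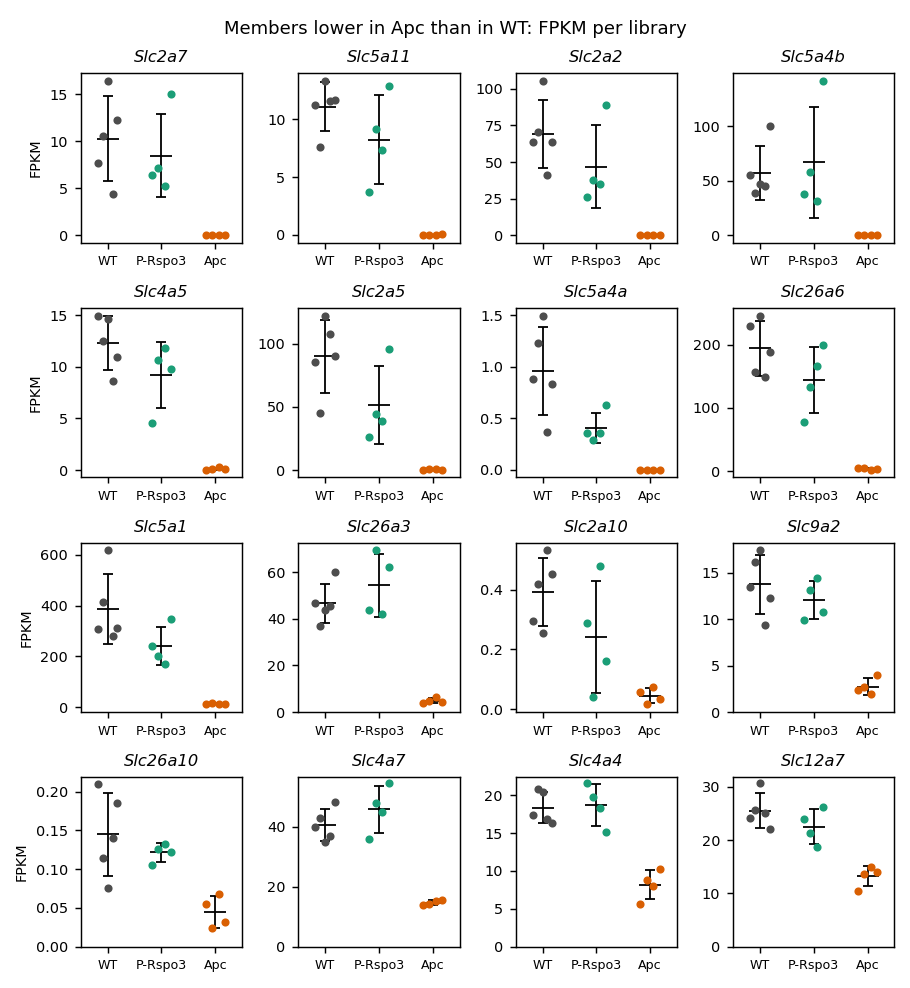
FPKM (vertical axis, each panel on its own linear scale) of the 16 members lower in Apc than in WT, 1 point per library, with the mean and SD. In every panel the Apc points lie under all WT points, and the P-Rspo3 points overlap the WT range.

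The Slc4a family, known for bicarbonate carriers, split. Of 8 tested members 3 were lower in Apc and 3 higher, beside 14.1% and 12.2% of all genes tested. The 8 include Slc4a1ap, which encodes no carrier. The sodium-bicarbonate cotransporter Slc4a5 (NBCe2) had 14.9, 12.5, 14.7, 8.65 and 11.0 FPKM in WT and 0.0400, 0.0737, 0.253 and 0.111 in Apc (log2 fold change -7.51 ± 0.35, edgeR adjusted p = 5.32e-08). The electroneutral cotransporter Slc4a7 (NBCn1) had 35.0 to 48.4 FPKM in WT and 13.8 to 15.5 in Apc (log2 fold change -1.75 ± 0.10, edgeR adjusted p = 1.99e-07). The basolateral cotransporter Slc4a4 (NBCe1) had 16.3 to 20.8 and 5.65 to 10.2 FPKM (log2 fold change -1.48 ± 0.16, edgeR adjusted p = 1.48e-05). The decrease of these cotransporters was thus far smaller than that of Slc4a5. The most abundant member of the family, the basolateral anion exchanger Slc4a2 (AE2), had 55.9 to 64.3 FPKM in WT and 45.2 to 59.7 in Apc and was not called (log2 fold change -0.50 ± 0.07, edgeR adjusted p = 1.67e-04).

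The Slc4a members that were higher in Apc were almost silent in WT. Slc4a11, whose loss in people causes a corneal dystrophy, had 0.257, 0.0998, 0.0865, 0.130 and 0.0944 FPKM in WT and 7.94, 3.96, 6.60 and 9.49 in Apc. With 455 to 1243 counts in Apc and 12 to 36 in WT, its log2 fold change was 5.12 ± 0.33 (edgeR adjusted p = 4.58e-07). The anion exchanger Slc4a3 (AE3) rose from 0.0167 to 0.133 FPKM in WT to 0.497 to 1.52 in Apc (log2 fold change 3.47 ± 0.51, edgeR adjusted p = 1.56e-04). Slc4a8, a sodium-driven chloride-bicarbonate exchanger, had 0.0886 to 0.364 and 0.763 to 1.88 FPKM (log2 fold change 2.18 ± 0.35, edgeR adjusted p = 2.89e-04). In each of these 3 genes Apc replicate 6 held the highest level.

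Of 6 tested sodium-proton exchangers of the plasma membrane, 1 was lower in Apc and 1 higher, beside 14.1% and 12.2% of all genes tested. Slc9a2 (NHE2), an apical exchanger, had 13.5, 16.2, 17.5, 9.37 and 12.3 FPKM in WT and 2.33, 2.66, 1.94 and 4.01 in Apc (log2 fold change -2.66 ± 0.26, edgeR adjusted p = 7.92e-06). Slc9a3 (NHE3), the main apical exchanger, had 14.7, 10.7, 22.3, 11.98 and 14.5 FPKM in WT and 8.86, 18.1, 18.9 and 19.5 in Apc. The groups overlapped, and the log2 fold change of -0.17 ± 0.26 was not called (edgeR adjusted p = 0.613, interval of 2 standard errors -0.69 to 0.35). Slc9a4 (NHE4), known from the gastric parietal cell, was higher, with 0.133 to 0.509 FPKM in WT and 1.08 to 3.53 in Apc (log2 fold change 3.05 ± 0.37, edgeR adjusted p = 3.89e-05). As 21.3% of its exonic bases overlap antisense genes and the strand setting of the counting is not given, reads of those genes and of Slc9a4 cannot be told apart.

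The scaffold proteins that tether NHE3 and CFTR differed between themselves. Slc9a3r1 (NHERF1) had 85.8 to 107 FPKM in WT and 68.7 to 82.9 in Apc, a log2 fold change of -0.64 ± 0.10 that did not reach the fold threshold (edgeR adjusted p = 1.73e-04). Slc9a3r2 (NHERF2) had 0.632, 0.759, 0.488, 0.914 and 0.491 FPKM in WT and 2.51, 2.74, 3.05 and 2.77 in Apc (log2 fold change 1.79 ± 0.19, edgeR adjusted p = 1.28e-05). Despite this rise, it stayed far less abundant than Slc9a3r1 in every library.

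In the Slc12a family, 1 of 6 tested members was lower in Apc and 1 higher, beside 14.1% and 12.2% of all genes tested. Slc12a2 (NKCC1) had 120.1, 169, 134, 236 and 125 FPKM in WT and 156, 172, 137 and 149.7 in Apc. The Apc libraries lay inside the WT range, and the log2 fold change of -0.32 ± 0.18 was not called (edgeR adjusted p = 0.156, interval of 2 standard errors -0.68 to 0.04). As other members fell, its share of the summed level was 10.5% in WT and 25.7% in Apc, the largest of any member there. Slc12a4 (KCC1, ENSMUSG00000017765), a potassium-chloride cotransporter, had 0.0128, 0.135, 0.0594, 0.0625 and 0.0204 FPKM in WT and 2.01, 1.99, 1.71 and 3.53 in Apc. At 2 to 4 counts per WT library against 241 to 407 per Apc library, it had the largest increase of all tested members. Its log2 fold change was 6.21 ± 0.27 (edgeR adjusted p = 3.2e-08). With so few WT counts this SE, taken from the test statistic, understates the counting error. Slc12a7 (KCC4) went the other way, with 22.1 to 30.8 FPKM in WT and 10.5 to 14.9 in Apc (log2 fold change -1.24 ± 0.13, edgeR adjusted p = 1.34e-05).

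**Figure D3:**
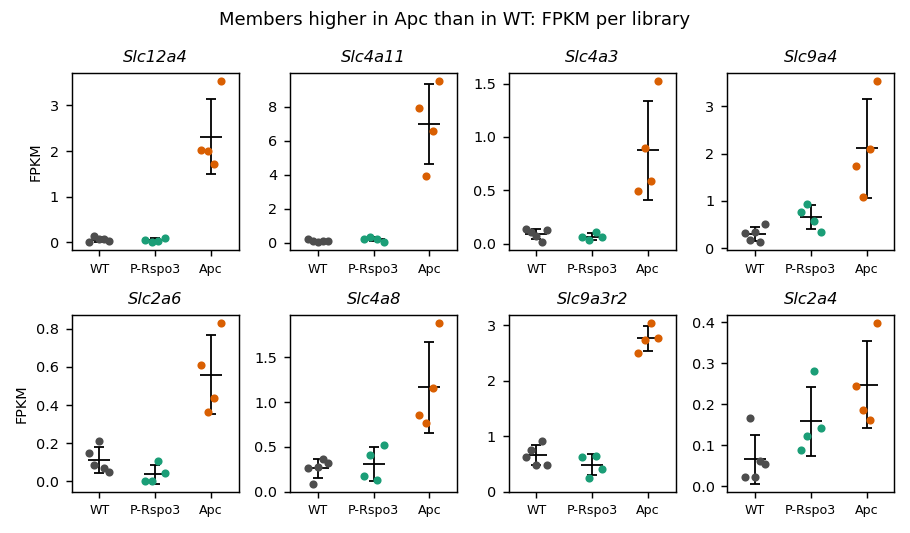
FPKM (vertical axis, each panel on its own linear scale) of the 8 members higher in Apc than in WT, 1 point per library, with the mean and SD. The WT and P-Rspo3 points lie under 1 FPKM in all panels, and Apc and WT overlap only for Slc2a4.

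Measured on log2(FPKM + 1) with limma, 4 members were called higher in Apc and 12 lower, against 8 and 16 with edgeR. Among the named members, Slc2a4, Slc2a6, Slc4a3, Slc4a8 and Slc5a4a no longer passed the fold threshold. A pseudocount of 1 exceeds most of the values of these 5. Their adjusted p by limma was 0.023 for Slc2a4 and 4.64e-04 to 0.00147 for the others. The remaining calls lost were of members outside the naming rule.

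The second comparison, P-Rspo3 with WT, addressed whether organoids with the rearrangement keep the transporter profile of WT. No member was called in either direction among 45 tested by edgeR, where 0.00625% of the 15992 genes tested were called higher and 0.0% lower. DESeq2 also called 0 members. At an unadjusted p under 0.05 there were 7 of 45 members (15.6%), beside 13.5% of all genes tested, and this number was 2 without WT replicate 5, 2 without P-Rspo3 replicate 4d, 4 without 15d and 12 without F. The smallest adjusted p was 0.243, and the log2 fold changes ran from -1.21 to 2.79 with a median of -0.07. In 44 of the 45 members the FPKM ranges of the groups overlapped. The exception was Slc4a1ap, with 9.45 to 10.1 FPKM in P-Rspo3 and 7.35 to 9.27 in WT, and a log2 fold change of 0.21 ± 0.08 (edgeR adjusted p = 0.305).

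Several sugar carriers had lower means in P-Rspo3, within a wide spread. Slc5a1 had 241, 202, 172 and 345 FPKM in replicates 15d, 4d, M and F, and 3 of these lay under the lowest WT library (280.2). Its log2 fold change was -0.69 ± 0.29 (edgeR adjusted p = 0.33), with an interval of 2 standard errors from -1.27 to -0.11. Slc2a5 had 26.4, 44.2, 39.2 and 96.0 FPKM (log2 fold change -0.78 ± 0.40, edgeR adjusted p = 0.423), and Slc2a2 26.2, 37.6, 34.7 and 88.8 (log2 fold change -0.56 ± 0.39, edgeR adjusted p = 0.561). In both genes 15d, 4d and M lay under the WT range and F within it. Slc5a4b had 37.5, 58.2, 31.2 and 142 FPKM, so that F exceeded every WT library and 15d and M lay under them. Unlike the others, its mean was higher in P-Rspo3, at 67.1 ± 50.9 FPKM against 57.2 ± 24.8 in WT. Slc5a11 had a log2 fold change of -0.81 ± 0.33 (edgeR adjusted p = 0.324). These tests do not show that the groups are alike, since the intervals of Slc5a1 and Slc2a5 reach -1.27 and -1.58.

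**Figure D4:**
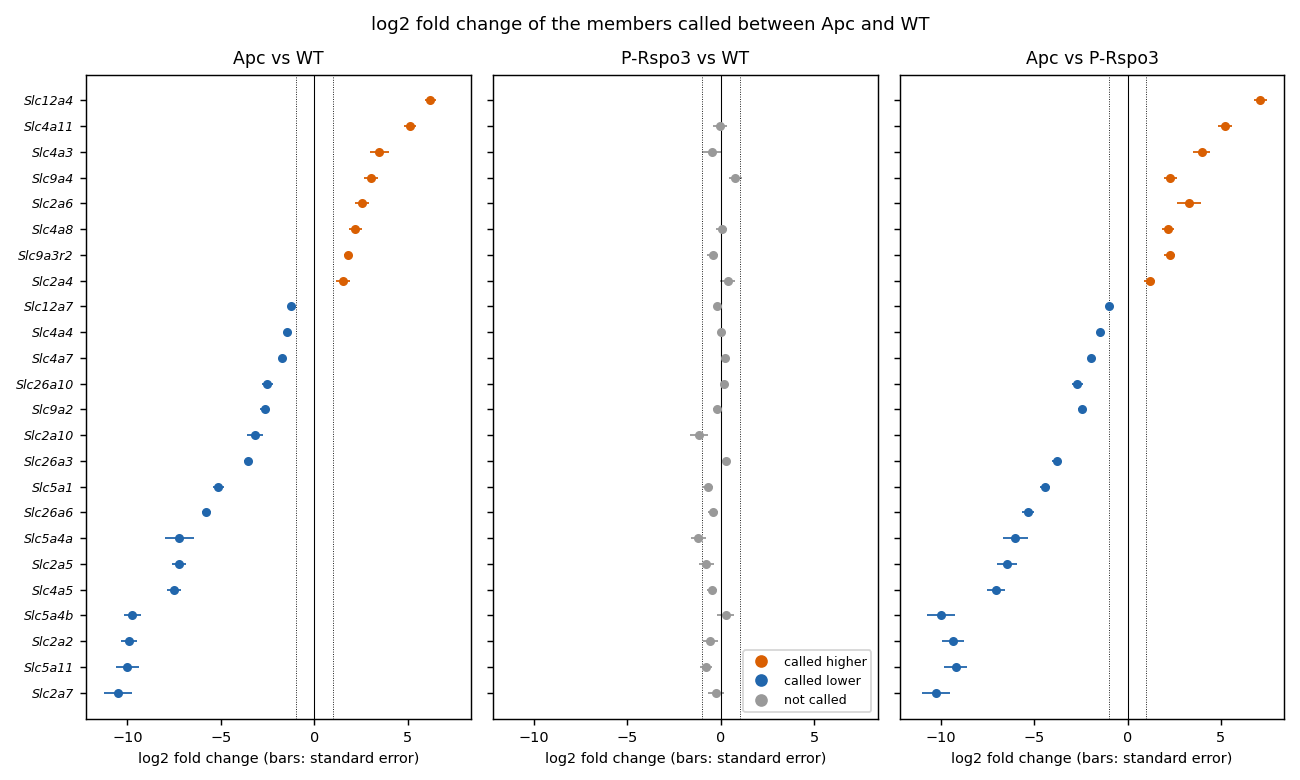
log2 fold change (horizontal axis, bars are standard errors) of the 24 members called between Apc and WT (1 line each), in the 3 comparisons, where tested. Dotted lines mark a log2 fold change of 1 in either direction; both Apc panels show called members on each side, and the P-Rspo3 panel shows none, with values between -1.21 and 0.77 for the members drawn.

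None of the ion carriers was called either. Slc26a3 had 43.9, 69.4, 42.2 and 62.4 FPKM (log2 fold change 0.25 ± 0.18, edgeR adjusted p = 0.592) and Slc26a6 77.9, 133, 166 and 199 (log2 fold change -0.43 ± 0.27, edgeR adjusted p = 0.524), with 15d and 4d under the WT range. Slc12a2 had 181, 137, 129 and 130.5 FPKM, within the WT range, with an interval of 2 standard errors from -0.50 to 0.26 for its log2 fold change of -0.12. Slc9a3 had 5.93, 8.73, 8.21 and 13.8 FPKM, with 3 libraries under the WT range, and a log2 fold change of -0.70 ± 0.28 (edgeR adjusted p = 0.321). Slc9a4 had 0.342 to 0.926 FPKM against 0.133 to 0.509 in WT (log2 fold change 0.77 ± 0.35, edgeR adjusted p = 0.371). The genes with the largest increases in Apc stayed scarce here, with at most 0.343 FPKM for Slc4a11, whose highest WT library had 0.257, and at most 0.0920 for Slc12a4.

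P-Rspo3 libraries differed among themselves. Of the 16 members lower in Apc, F held the highest P-Rspo3 level in 10, 15d the lowest in 8 and M the lowest in 5. The summed enterocyte markers were 2224 FPKM in 15d, 3221 in 4d, 3906 in M and 5168 in F, again highest in F and lowest in 15d. WT varied as well, with replicate 5 highest in 9 of the same 16 members and replicate 6 lowest in 7, and enterocyte sums of 9360 and 3207 FPKM. The part of these markers in the spread was not tested. The widest single departure was Slc5a8 (SMCT1), a sodium-coupled monocarboxylate carrier chosen after its values were seen. It had 6.06 FPKM and 1026 counts in 15d and at most 0.382 FPKM in any other grouped library. Its log2 fold change of 2.79 ± 1.28 rested on that library and was not called (edgeR adjusted p = 0.38).

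The last comparison set Apc against P-Rspo3, both without RSPO1. Of 45 tested members, 15 were lower in Apc (33.3%) and 8 higher (17.8%), where 13.3% and 13.4% of the 16456 genes tested were called lower and higher. On log2(FPKM + 1) with limma the split was 12 lower and 3 higher. These 15 and 8 were the same genes as in the comparison with WT, with which it shares the Apc libraries, and Slc2a10, the remaining gene, was not tested here. Sugar carriers again had large differences, with log2 fold changes of -9.99 ± 0.75 for Slc5a4b (edgeR adjusted p = 5.5e-06), -9.34 ± 0.61 for Slc2a2 (edgeR adjusted p = 2.4e-06), -6.43 ± 0.54 for Slc2a5 (edgeR adjusted p = 1.1e-05) and -4.43 ± 0.26 for Slc5a1 (edgeR adjusted p = 1.55e-06). Without P-Rspo3 replicate F the value of Slc5a4b was -9.27, and its edgeR adjusted p was at most 5.9e-05 whichever library was left out. Slc2a7 was at least 257-fold, Slc5a11 at least 125-fold and Slc5a4a at least 13.7-fold lower. Slc26a6 had -5.33 ± 0.34 (edgeR adjusted p = 2.08e-06), Slc26a3 -3.78 ± 0.24 (edgeR adjusted p = 2.03e-06) and Slc4a5 -7.03 ± 0.47 (edgeR adjusted p = 2.64e-06). Slc12a7, at -1.02 ± 0.15, passed the fold threshold narrowly (edgeR adjusted p = 2.7e-04).

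In the other direction, Slc12a4 was at least 73.0-fold higher in Apc than in P-Rspo3, where no library had more than 3 counts. Slc4a11 had a log2 fold change of 5.21 ± 0.35 (edgeR adjusted p = 2.99e-06), Slc4a3 of 3.96 ± 0.46 (edgeR adjusted p = 8.07e-05), Slc9a4 of 2.29 ± 0.36 (edgeR adjusted p = 4.94e-04) and Slc9a3r2 of 2.25 ± 0.29 (edgeR adjusted p = 1.34e-04). Slc12a2, Slc9a3 and Slc2a1 were not called, with log2 fold changes of -0.19 ± 0.12, 0.54 ± 0.32 and 0.44 ± 0.25 (edgeR adjusted p = 0.201, 0.175 and 0.153).

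Genes that work with these carriers were read from 4 lists, whose counts in Apc against WT stand beside 14.1% of all genes tested called lower and 12.2% higher. Of 15 tested genes of sugar digestion and handling, 9 were lower in Apc than in WT and none higher, with a median log2 fold change of -2.70. The brush border sucrase Sis had 693 to 1051 FPKM in WT and 0.613 to 2.11 in Apc (log2 fold change -9.91 ± 0.45, edgeR adjusted p = 4.33e-08). Khk, the kinase that commits fructose to metabolism, had 407 to 577 FPKM and 17.4 to 23.0 (log2 fold change -5.37 ± 0.18, edgeR adjusted p = 7.57e-09). Tkfc, G6pc, Lct, Mgam, Treh and the carbohydrate-responsive factor Mlxipl were also among the 9. Rsc1a1 had 0 counts in every library although FPKM of 6.65 to 15.7 were listed for it, so its test, 1 of the 15, says nothing.

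Of 20 tested regulators of ion transport, 9 were lower in Apc and none higher. The exchanger cofactor Chp2 had 41.8 to 60.9 FPKM in WT and 0.0651 to 0.288 in Apc (log2 fold change -8.42 ± 0.30, edgeR adjusted p = 9.65e-09). The peptide Guca2b, uroguanylin, had 205 to 369 and 2.65 to 10.6 FPKM (log2 fold change -6.14 ± 0.45, edgeR adjusted p = 9.85e-07), and its receptor Gucy2c had 58.9 to 82.3 and 29.9 to 35.1 FPKM (log2 fold change -1.32 ± 0.11, edgeR adjusted p = 2.3e-06). Ahcyl2, Guca2a, Pdzd3, Pdzk1, Sgk1 and Sgk2 were the other 6. The scaffold Pdzk1 passed narrowly, with an edgeR adjusted p of 0.0447, and was not called against P-Rspo3 (edgeR adjusted p = 0.345).

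Of 18 tested channels and aquaporins, 8 were lower in Apc and 1 higher. The potassium channel Kcnk5 had 11.8 to 14.9 FPKM in WT and 2.32 to 3.65 in Apc (log2 fold change -2.52 ± 0.15, edgeR adjusted p = 2.43e-07), and Aqp3 had 2.85 to 7.05 and 0.239 to 0.385 FPKM (log2 fold change -4.53 ± 0.33, edgeR adjusted p = 9.43e-07). Cftr had 33.3 to 47.2 FPKM in WT and 25.4 to 27.7 in Apc, and its log2 fold change of -0.85 ± 0.10 did not reach the fold threshold (edgeR adjusted p = 2.76e-05). Against P-Rspo3 it was called lower, with a log2 fold change of -1.08 ± 0.11 (edgeR adjusted p = 3.56e-05). The calcium-activated chloride channel Ano1 was the member that was higher, with 0.459 to 1.09 and 3.90 to 11.2 FPKM (log2 fold change 2.85 ± 0.28, edgeR adjusted p = 9.53e-06).

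The sodium pump and the carbonic anhydrases were mixed, with 3 of 13 tested genes lower in Apc and 4 higher. Atp1b1, a subunit of the sodium pump, and Car13, a carbonic anhydrase, were among those lower. The cytosolic carbonic anhydrase Car2 had 2.12 to 8.60 and 38.2 to 67.7 FPKM (log2 fold change 2.97 ± 0.33, edgeR adjusted p = 1.89e-05). Fxyd3 had 35.9 to 57.4 and 114 to 142 FPKM (log2 fold change 1.12 ± 0.14, edgeR adjusted p = 6e-05). Car1 was higher too, listed at 0 in every WT library and reaching 2.91 FPKM in Apc replicate 6. In P-Rspo3 against WT, no gene of the 4 lists was called by edgeR.

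In Apc against P-Rspo3, where 13.3% of all genes tested were called lower and 13.4% higher, 10 of 15 tested genes of sugar digestion and handling were lower and none higher, Arrdc4 joining those lower than in WT. Of 20 tested regulators, 8 were lower and none higher. Of 18 tested channels and aquaporins, 10 were lower, now with Cftr and Kcnj13, and 1 was higher. Of 11 tested genes of the pump and carbonic anhydrase list, 2 were lower and 4 higher, and Atp1b1, at a log2 fold change of -0.88 ± 0.15, was no longer called (edgeR adjusted p = 9.5e-04).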

How the data were processed

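RNA of 15 organoid cultures was analysed, 13 of them in groups taken from the sample labels. Per the submitters' processing notes and the methods, the authors used STAR for alignment against GRCm38, counted reads per Ensembl gene with HTSeq 0.6.0 and estimated FPKM with Cufflinks 2.2.1. The deposited counts are whole numbers without normalization, and the deposited FPKM are relative to transcript length and library size. The annotation release and the strand setting are not given in the sources used here. GENCODE M21 symbols matched 42462 of 43629 gene IDs.

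The count test was edgeR 4.0.16 under R 4.3.3 (TMM, glmQLFit and glmQLFTest at their defaults), with each pair of groups fitted separately. Genes reaching 0.1 FPKM in a number of libraries no smaller than the size of the smaller group were tested, which 45 of the 67 members were in each comparison, 42 of them in all 3. Of the 19 members never tested, none exceeded 0.457 FPKM in a grouped library. Slc12a4, Slc12a5, Slc26a4, Slc2a10, Slc2a6 and Slc5a8 were tested in some comparisons only. Calls required a p under 0.05 after Benjamini-Hochberg adjustment over all genes tested and an absolute log2 fold change above 1. The SE of a log2 fold change is its absolute value divided by the square root of the test's F statistic. It is not a separate estimate and can be too small where counts are few, as can intervals built on it. Where no library of a group exceeded 3 counts, the fold is a lower bound. Levels were compared between genes only as FPKM. Depth of 28902729 to 35528495 counts per library sets the precision, and floors cover counting error only. On simulated counts for the Apc and WT design (16749 genes), all 73 changes of 4-fold and all 64 of 8-fold were called, and 33 of 63 of 2-fold. A 2-fold change lies at the fold threshold itself, and 62 of the 63 had an edgeR adjusted p under 0.05. Changes were given only to genes above a minimum expected count, with the same dispersion for every gene. The simulation therefore does not cover members at a few counts per library, nor members that vary more between libraries than was simulated.

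Alternatives were DESeq2 1.42.0, other size factors and filters, a joint fit of the 3 groups, omission of each library in turn, limma 3.58.1 on log2(FPKM + 1) and log2(FPKM + 0.1), both conflicting libraries grouped by genotype, the adjusted p alone, the line number as a block, and, added after the data were seen, the newer form of edgeR's test. Named members were the 10 called with the largest change per direction and comparison, the 10 with the highest WT level and 13 with a role of their own in the intestine. The members and lists were chosen with earlier results of these data known. Some genes of the rule and the lists are not reported here.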

Additional observations from a re-analysis of the deposited data

Results flagged for a closer look

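The spread within groups was examined for the 27 named members, in 80 groups of 4 or 5 libraries. In 8 of them the highest or lowest library lay far from the others by Dixon's criterion, which chance exceeds in about 0.05 of groups.

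Slc12a2 had 181.44 FPKM in P-Rspo3 replicate 15d, the highest of its group, against 129 to 137 in the others. Slc12a4 had 3.5311 FPKM in Apc replicate 6 against 1.71 to 2.01. Slc2a4 had 0.16685 FPKM in WT replicate 2 against at most 0.0612. Slc2a7 and Slc5a11 had 0.031422 and 0.04223 FPKM in Apc replicate 6 and 0 in the other Apc libraries, which corresponds to a few reads. Slc4a11 had 0.2572 FPKM in WT replicate 1 against 0.0865 to 0.130. Slc5a4b had 100.11 FPKM in WT replicate naive against 38.3 to 55.3. Slc9a3 had 8.8603 FPKM in Apc replicate 1, the lowest of its group, against 18.1 to 19.5. Of the 8 values, 3 were from Apc replicate 6. The cause of these departures was not tested.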

How the results depend on the processing

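Calls of named members were lost 5 times in Apc against WT and 7 times in Apc against P-Rspo3, where Slc2a4 counts under both pseudocounts, all of them under limma on FPKM with a pseudocount, and no value changed sign among called results. With each library left out in turn, the members higher and lower numbered 8 to 9 and 15 to 17 in Apc against WT, 8 to 10 and 14 to 17 in Apc against P-Rspo3, and 0 and 0 in P-Rspo3 against WT. Limma on log2(FPKM + 1) called 4 members higher in Apc against WT and 3 in Apc against P-Rspo3, where a pseudocount of 1 shrinks the folds of low genes. By the adjusted p alone, 25 and 23 members were lower in Apc than in WT and in P-Rspo3, as the fold threshold is dropped. Without the FPKM filter, 13 members were higher in Apc than in P-Rspo3, with 66 tested.

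Same-numbered Apc and WT libraries carry the same line number in their titles. Deviations from the mean of the group correlated at 0.0219 to 0.2 over these 4 pairs, against a median of -0.0301 over 12 other pairs. In a fit that took the line as a replicate block, 8 members were higher and 15 lower of 44 tested, and over all genes 1979 and 2240 were called. Over all genes, P-Rspo3 against WT gave 166 higher and 100 lower calls without WT replicate naive, and 55 and 173 by DESeq2, against 1 and 0, with 0 members called in each case. Members at a few counts per library, such as Slc2a4 and Slc4a3 in WT, are limited by depth.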

Other observations

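The 2 libraries with conflicting labels gave the following levels. The library titled LIPO, with a dox-naive genotype field, had 0 counts of Rspo3, and the library titled NAIVE_F, with a Ptprk-Rspo3 genotype field, had 729. Slc5a1 had 269 FPKM in LIPO and 305 in NAIVE_F, Slc2a2 71.3 and 46.7, Slc2a5 69.1 and 71.0, Slc26a3 67.0 and 52.9, and Slc12a2 120.0 and 136. Slc12a4 had 0 and 0.00806 FPKM and Slc4a11 0.196 and 0.513. Their enterocyte markers summed to 5934 and 5157 FPKM.

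Among members that were never tested, Slc5a12 (SMCT2), a monocarboxylate carrier, had 0.412 FPKM in P-Rspo3 replicate 15d and 0.457 in replicate F and at most 0.0429 in the other grouped libraries. Slc4a1, the anion exchanger of red blood cells, had 0.280, 0.0893, 0.170 and 0.139 FPKM in Apc replicates 1, 2, 5 and 6, beside at most 0.0152 in WT and P-Rspo3. Both were chosen after their values were seen, and neither passed the filter on FPKM.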
